A study of Mus musculus with 3 samples.

Results

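In the hippocampus of old C57BL/6 mice, 718 endothelial cells held RNA of at least 3 of 6 genes, Angpt2, Adm, Plaur, Tnfrsf12a, Dll4 and Trim16, without an arterial or venous marker profile. They are called Angpt2-Adm cells here, after 2 genes of the rule. The name is a label only: Angpt2 was detected in 24.9% and Adm in 68.8% of them. The study made single-cell RNA libraries from hippocampal cells of wild-type mice with a labelled age of 2 years, and its design text names 6 hippocampi. There was 1 group of 3 libraries and no treatment, and the title of replicate 3 gives 25 months. The tissue was dissociated with papain and freed of myelin before droplet capture, and the protocol describes no sort for endothelial cells. The labels do not tie a library to an animal, so p-values measure only the spread between these libraries, which may be technical in part.

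Of 14759 barcodes in the 3 tables, 4061 passed the endothelial gate: at least 2000 UMIs (unique RNA molecules counted), at most 20% of UMIs from mitochondrial genes, UMIs of at least 3 of Cldn5, Flt1, Pecam1, Itm2a, Cdh5 and Ly6c1, and of at most 1 of 5 genes of other cell types (Slc1a2, Aqp4, Cx3cr1, Vtn, Ccdc153). Angpt2-Adm cells were chosen by the UMI counts of the 6 genes: they were those with at least 3 of the 6 genes, at most 1 of the arterial genes Gkn3, Sema3g, Bmx, Vegfc, Egfl8 and Stmn2, and at most 1 of the venous genes Slc38a5, Ackr1, Lrg1, Il1r1, Vwf and Cyp2e1. They numbered 464, 89 and 165 in replicates 1, 2 and 3. The cells they were set against carried at most 2 of the 6 genes: 1563 remaining cells with at most 2 genes of either vessel list, 429 arterial-marker cells and 177 venous-marker cells with at least 3 genes of their own list. The other 1174 gated cells fitted none of these and were only counted. Values of the 29 genes used to choose cells are given as descriptions, without a test.

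Sprouting vessels are led by tip cells, which respond to vascular endothelial growth factor (Vegf) and restrain their neighbours through the Notch ligand Dll4. Angpt2 is a secreted antagonist, in most settings, of the receptor Tek (Tie2), which keeps vessels quiescent. Adm encodes adrenomedullin, a peptide that acts on Calcrl paired with Ramp2 or Ramp3 and is induced by low oxygen. Plaur is the receptor that holds urokinase at the cell surface. Tnfrsf12a is Fn14, the receptor of Tweak, and is induced in injured and remodelling tissue. Trim16 is a ubiquitin ligase known from work on damaged endosomes and protein stress. In GENCODE vM21 (mm10), the genes lie at chr8:18690263-18741562, minus strand (Angpt2), chr7:110627661-110629820, plus strand (Adm), chr7:24462484-24475968, plus strand (Plaur), chr17:23675445-23677468, minus strand (Tnfrsf12a), chr2:119325784-119335962, plus strand (Dll4) and chr11:62820231-62850808, plus strand (Trim16).

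Levels of the 6 genes, in CPM (the UMIs of a gene summed over the cells of a group, scaled to the same total in every library) for replicates 1, 2 and 3, show what the rule chose. Angpt2 stood at 86.1, 52.1 and 86.6 CPM in Angpt2-Adm cells, against 7.16, 2.52 and 6.65 CPM in remaining cells. Adm stood at 292, 929 and 479 CPM in Angpt2-Adm cells, against 135, 143 and 164 CPM in remaining cells, and its highest value was that of replicate 2. For Dll4 the values were 229.6, 219 and 208 CPM in Angpt2-Adm cells and 40.2, 51.7 and 55.7 CPM in remaining cells, with little spread between libraries. Plaur and Tnfrsf12a were lower in replicate 3 than in the other libraries, within both groups. Plaur had 376, 311 and 93.9 CPM in Angpt2-Adm cells and 70.1, 47.9 and 17.7 CPM in remaining cells, and Tnfrsf12a had 637, 557 and 178 CPM in Angpt2-Adm cells and 127, 114 and 53.4 CPM in remaining cells. Trim16 measured 185, 141 and 97.2 CPM in Angpt2-Adm cells and 43.5, 41.6 and 41.3 CPM in remaining cells.

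**Figure D1:**
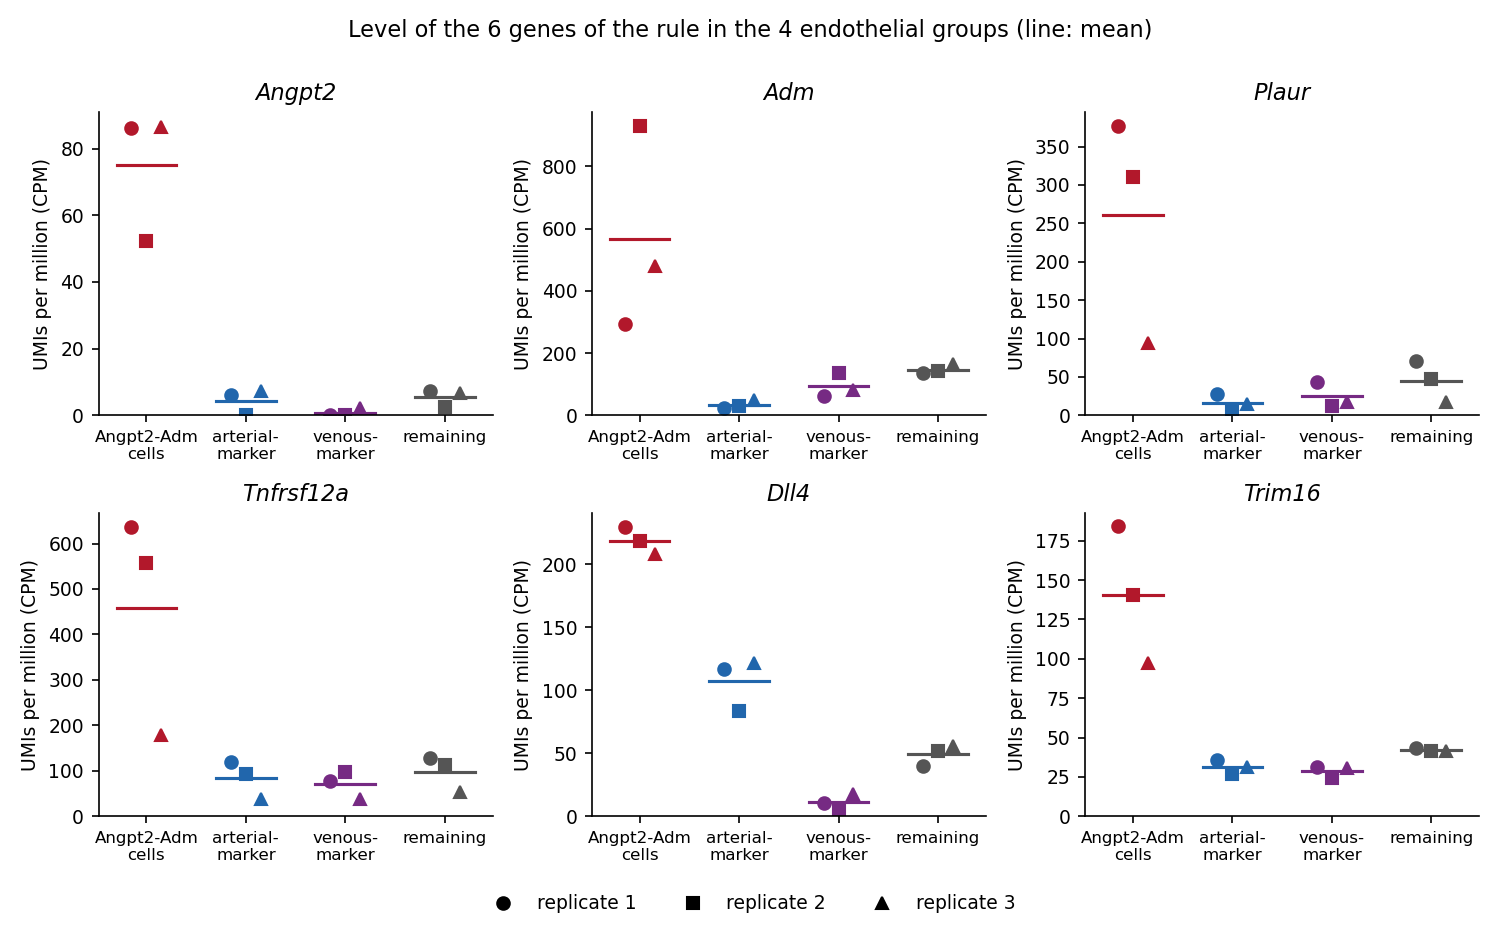
Level of each of the 6 genes of the rule (CPM, linear axis from 0) in Angpt2-Adm, arterial-marker, venous-marker and remaining cells, 1 point per library and a line at the mean. The rule chose cells by these genes, so the height of the first group is a description; among the other groups, Dll4 was highest in arterial-marker cells.

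The 6 RNAs were not equally common in the cells chosen. Tnfrsf12a was detected in 83.4% of the 718 cells, Dll4 in 73.1%, Adm in 68.8%, Plaur in 68.0% and Trim16 in 66.4%, but Angpt2 in 24.9% (179 cells). The commonest combination was all but Angpt2, in 88 cells. In all, 38 cells held the 6 RNAs together. In astrocytes of the same libraries, which should lack Dll4, it was detected in 0.539%, 0% and 0.133% of cells (median depths 5858, 6877 and 8914 UMIs), against 71.6%, 69.7% and 79.4% of Angpt2-Adm cells (median depths 6659, 7646 and 6741 UMIs). Angpt2 was detected in 26.3%, 21.3% and 23.0% of Angpt2-Adm cells and in 0.269%, 0% and 1.07% of astrocytes. In remaining cells of replicates 1, 2 and 3, Dll4 was detected in 14.5%, 28.2% and 22.5%. Angpt2 was detected there in 2.9985%, 0.855% and 2.82%. The rule chose Angpt2-Adm cells by these RNAs and held remaining cells to at most 2 of the 6. The shares of both groups were thus shaped by the rule and do not test for stray UMIs. Of the 56 astrocytes of replicate 2, 0 held Dll4 or Angpt2 RNA, which allows a share of cells with a UMI of up to 5.36% (3 cells of the total). Plaur and Tnfrsf12a were also microglial RNAs in these libraries, at 198, 234 and 142 CPM and 269.8, 256 and 139 CPM in microglia.

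Just inside the limit, cells with exactly 3 of the 6 genes averaged 31.4 CPM of Angpt2, 377 CPM of Adm and 136 CPM of Dll4. Just outside it, cells with 2 of them averaged 12.3, 234 and 79.9 CPM of the same genes. Cells with 3, 4, 5 and 6 genes numbered 324, 218, 138 and 38. Cells were found at every number of genes from 0 to 6, and the limit of 3 is a cut through that range; whether the cells form a cluster was not tested. When a random part of each cell's UMIs was used to choose cells and the UMIs held back were used to measure them, Angpt2 was higher by 2.53, Plaur by 2.14, Tnfrsf12a by 2.00, Dll4 by 1.34, Adm by 1.32 and Trim16 by 1.20 on the log2 scale.

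**Figure D2:**
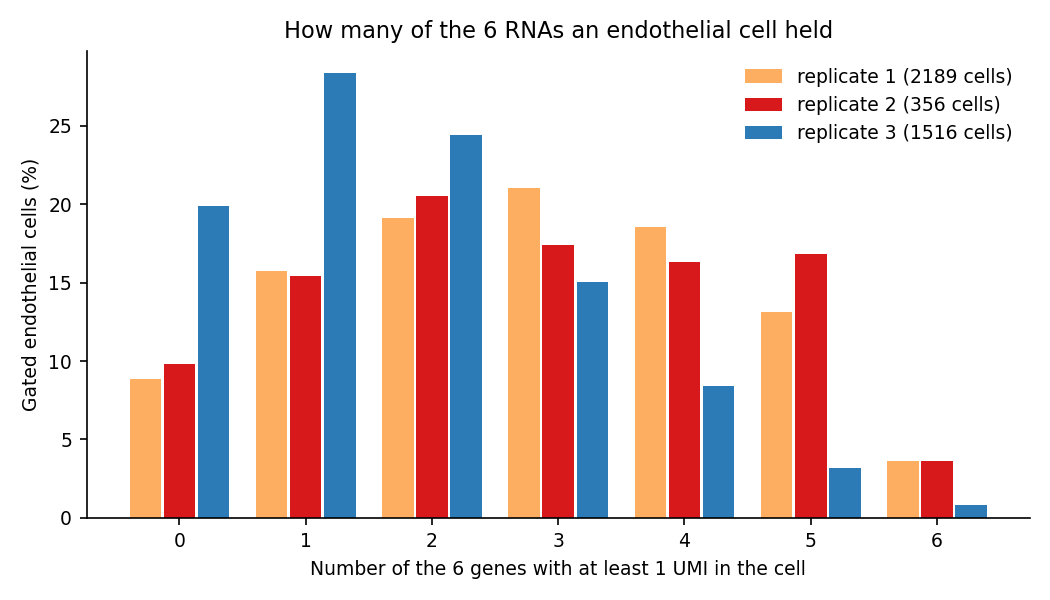
Share of gated endothelial cells (percent) by the number of the 6 genes with at least 1 UMI, for each library. Replicate 3 peaks at 1 gene; of its cells, 27.4% held 3 or more, against 56.3% in replicate 1 and 54.2% in replicate 2.

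Angpt2-Adm cells made up 21.2% of gated endothelial cells in replicate 1 (exact Clopper-Pearson 95% interval 19.5 to 23.0), 25% in replicate 2 (20.6 to 29.8) and 10.9% in replicate 3 (9.36 to 12.6), with a mean of 19.0% ± 7.30 (SD, n = 3). Intervals cover counting error only. With every cell thinned to 2000 UMIs the shares were 13.7%, 15.7% and 3.36%, so replicate 3 was lowest at equal depth too. More gated cells held at least 3 of the 6 RNAs than were kept: of 1841, the limit on arterial genes removed 602, the limit on venous genes 399, and both limits 122.

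The label of these cells as tip-like was checked against RNAs that mark sprouting tip cells and that the rule did not use. Apln, the apelin peptide of tip cells, was detected in 9 of the 718 Angpt2-Adm cells and 7 of 1563 remaining cells. Astrocytes held Apln more often, in 16.5%, 12.5% and 16.0% of cells of replicates 1, 2 and 3. Esm1, a proteoglycan of tip cells, was detected in 2 Angpt2-Adm cells and 0 of 1563 remaining cells, which allows a share of cells with an Esm1 UMI of up to 0.192% (3 cells of the total). Pgf, a Vegf family ligand, was found in 8 Angpt2-Adm and 9 remaining cells, and the chemokine receptor Cxcr4 in 13 Angpt2-Adm and 15 remaining cells. None of these 4 genes passed the filter on low counts, nor did Mki67, a proliferation marker, and Plvap, a gene of leaky vessels, was at 0 in Angpt2-Adm cells. At least 2 of Apln, Esm1, Pgf and Cxcr4 occurred together in 4 Angpt2-Adm cells, 2 of 429 arterial-marker cells, 4 of the 1174 cells that fitted no group and 0 remaining cells. Arterial-marker cells held Pgf in 11 and Cxcr4 in 11 of 429. Of the 1174 cells that fitted no group, 18 held Apln, 31 Pgf and 38 Cxcr4. Smooth muscle cells held Pgf in 10 of 20 (replicate 1) and 4 of 11 (replicate 3). Whether stray UMIs of other cells add to these counts was not tested. Cells with at least 3 UMIs of Apln or any of Esm1 numbered 4, picked after their values were seen. A cell of replicate 3 held 29 UMIs of Angpt2 and 4 of Esm1, another 26 UMIs of Apln with 9 of Angpt2, a further one 19 UMIs of Apln with 14 of Angpt2, and a cell of replicate 1 held 6 UMIs of Apln with 4 of Angpt2. These RNAs of sprouting tip cells were not detected in nearly all of the 718 cells, which goes against the tip-like label, so the cells are called by the genes of the rule. Cldn5, the claudin of brain endothelium and a gene of the gate, stood at 5508, 4312 and 5307 CPM in Angpt2-Adm cells and 4901, 3854 and 5918 CPM in remaining cells, a level that the gate favoured in both groups.

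Of 30 tip cell genes, 21 passed the filter on low counts; 4 were higher and 2 lower in Angpt2-Adm than in remaining cells, with a median log2 change of 0.25. Over all 9006 genes tested the median was -0.01, and of the 8979 outside the rule 5.67% were called higher and 1.57% lower (edgeR's quasi-likelihood test on UMIs summed per library and group, Benjamini-Hochberg adjusted p under 0.05). Nid2, a basement membrane protein, had 38.6, 58.9 and 38.4 CPM in Angpt2-Adm cells, against 25.4, 35.3 and 23.2 CPM in remaining cells (log2 change 0.77 ± 0.17 SE, edgeR adjusted p = 0.00787). The netrin receptor Unc5b had 45.1, 70.3 and 46.6 CPM in Angpt2-Adm cells, against 38.0, 35.3 and 31.6 CPM in remaining cells (log2 change 0.61 ± 0.16 SE, edgeR adjusted p = 0.024). Every library had more Nid2 and Unc5b in Angpt2-Adm cells. Efnb2, the ephrin ligand of arteries and tip cells, had 76.6, 35.1 and 38.4 CPM in Angpt2-Adm cells, against 38.8, 37.8 and 30.0 CPM in remaining cells (log2 change 0.68 ± 0.18 SE, edgeR adjusted p = 0.0223), and its replicate 2 went the other way. Col4a1, a collagen of the basement membrane, was higher too, by 0.39. The 2 lower genes were Marcksl1, a regulator of actin, at -1.41, and Pdgfb, the ligand that draws pericytes to vessels, at -0.48 (named after its values were seen). The changes of Nid2, Unc5b, Efnb2, Col4a1 and Marcksl1 missed the threshold without replicate 1. Without replicate 3 those of Nid2, Unc5b, Efnb2 and Col4a1 missed it, and without replicate 2 those of Unc5b and Marcksl1. Efnb2 also missed it against remaining cells held to the same vessel limits, and Col4a1 with microglia-marker cells left out.

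Sequencing gave 45716237, 7185668 and 40377042 UMIs in replicates 1, 2 and 3, with the smallest total in replicate 2, which had 1062 barcodes. Median UMIs per cell were 6659, 7646 and 6741 in Angpt2-Adm cells and 5282, 5768 and 4644 in remaining cells, and median mitochondrial shares were 2.27%, 3.64% and 4.75% in Angpt2-Adm cells and 2.35%, 3.44% and 4.70% in remaining cells. Pairs of libraries shared 3, 12 and 2 barcodes, and none was an Angpt2-Adm cell in both. A doublet caller marked 8, 0 and 2 Angpt2-Adm cells. RNA of at least 3 of 10 microglia markers was detected in 134 of 718 Angpt2-Adm cells (18.7%) and 343 of 1563 remaining cells (21.9%). The summed level of that list was 0.0764%, 0.151% and 0.139% of UMIs in Angpt2-Adm cells, against 0.103%, 0.587% and 0.125% in remaining cells, highest in remaining cells of replicate 2; its part in the results was not tested beyond the counts given below.

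Outside the rule, 509 genes were higher in Angpt2-Adm cells than in remaining cells (5.67% of 8979) and 141 were lower (1.57%), 7.24% in all. For 5.18% of the genes every library of Angpt2-Adm cells was above every library of remaining cells, and for 10.0% below. The 12 highest genes were named among those with the same sign in every library. Osgin1, an oxidative stress gene that is a target of Nrf2, had 99.6, 164 and 85.0 CPM in Angpt2-Adm cells, against 22.0, 27.8 and 13.5 CPM in remaining cells (log2 change 2.52 ± 0.20 SE, edgeR adjusted p = 1.36e-07). The groups did not overlap for Osgin1. Epha2, a receptor tyrosine kinase for ephrins, had 103, 130.4 and 66.2 CPM in Angpt2-Adm cells, against 27.4, 36.6 and 23.2 CPM in remaining cells (log2 change 1.87 ± 0.17 SE, edgeR adjusted p = 1.40e-06). Cdc42ep3, an effector of the small GTPase Cdc42 that binds septins, had 774, 652 and 406 CPM in Angpt2-Adm cells, against 319, 247 and 146 CPM in remaining cells (log2 change 1.47 ± 0.14 SE, edgeR adjusted p = 1.46e-06). The libraries of Epha2 and Cdc42ep3 did not overlap between groups either. Ifrd1, a transcriptional co-regulator, had 843, 854 and 259 CPM in Angpt2-Adm cells, against 290.1, 276 and 140.1 CPM in remaining cells (log2 change 1.44 ± 0.19 SE, edgeR adjusted p = 8.09e-05), and its lowest value in Angpt2-Adm cells, that of replicate 3, lay under the highest of the remaining cells. Emp1, a tetraspan membrane protein, had 113, 154 and 47.4 CPM in Angpt2-Adm cells, against 32.6, 39.1 and 28.2 CPM in remaining cells (log2 change 1.66 ± 0.21 SE, edgeR adjusted p = 5.11e-05).

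Among the others of the 12 highest genes, Fam69b, a kinase-like protein of the endoplasmic reticulum, was at a log2 change of 2.07 ± 0.20 and Adamts9, a secreted protease that cleaves versican, at 1.67 ± 0.20 (SE). Gadd45a, a growth arrest gene, was higher by 1.42 ± 0.16, at 114, 127 and 93.1 CPM in Angpt2-Adm cells, against 43.2, 46.7 and 41.5 CPM in remaining cells. Hilpda, a lipid droplet protein induced by hypoxia, was higher by 1.42 ± 0.21, at 108, 349 and 112 CPM in Angpt2-Adm cells, against 47.4, 112 and 50.9 CPM in remaining cells; both groups peaked in replicate 2. The transcription factor Pou3f1 was at 1.78 ± 0.34, and Mepce, the capping enzyme of 7SK RNA, at 1.41 ± 0.13. The change of Pou3f1 was 1.62 without replicate 1 and no longer passed the threshold; Osgin1, Fam69b, Epha2, Adamts9, Emp1, Cdc42ep3, Ifrd1, Hilpda, Gadd45a and Mepce kept their calls without any 1 library. Leaving out replicate 1 gave 73 higher and 9 lower genes, and leaving out replicate 3 gave 233 higher and 68 lower. A fit with no library block called 21 higher and 1 lower. With every cell thinned to 2000 UMIs, 261 were higher and 84 lower. Held to the same limits on arterial and venous genes as the Angpt2-Adm cells, 1101 remaining cells gave 393 genes higher and 113 lower.

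**Figure D3:**
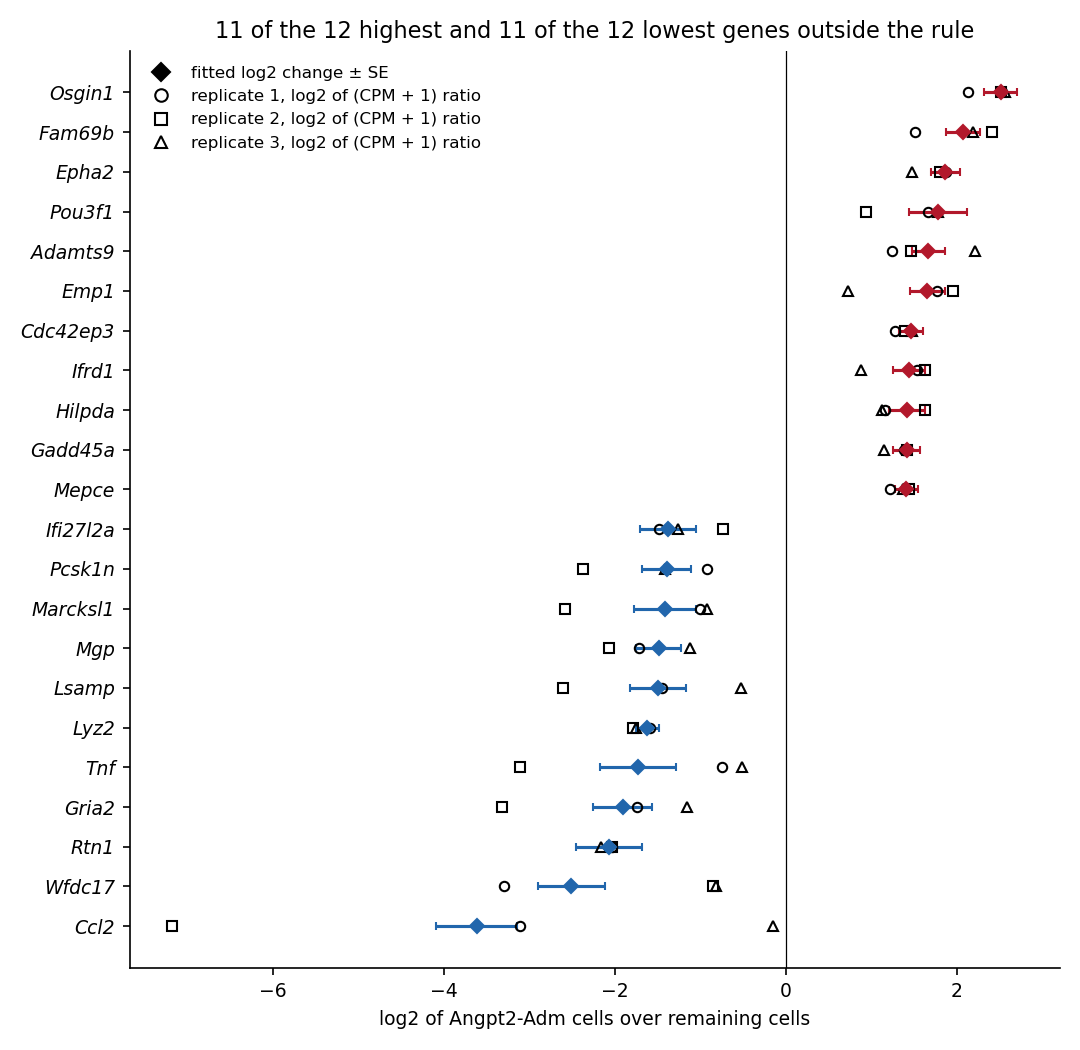
Fitted log2 change of Angpt2-Adm over remaining cells (diamonds, bars are SE) for 11 of the 12 highest and 11 of the 12 lowest genes outside the rule; open symbols give the log2 ratio of CPM + 1 in each library. The fitted changes of the higher genes are 1.41 to 2.52. Their library points spread more, and several lie under that range, among them Emp1 and Ifrd1 of replicate 3 and Pou3f1 of replicate 2. Ccl2 and Wfdc17 have libraries far apart.

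The 12 lowest genes included RNAs known from microglia and neurons. Ccl2, a chemokine, had 13, 2.27 and 9.80 CPM in Angpt2-Adm cells, against 119, 474 and 11 CPM in remaining cells (log2 change -3.62 ± 0.48 SE, edgeR adjusted p = 8.29e-05); replicate 3 hardly differed. Lyz2, the lysozyme of microglia and macrophages, had 51.3, 36.3 and 76.8 CPM in Angpt2-Adm cells, against 157, 127 and 262 CPM in remaining cells (log2 change -1.62 ± 0.13 SE, edgeR adjusted p = 2.62e-07), lower in every library; it lost its call with microglia-marker cells left out. The neuronal genes Rtn1, Gria2, Lsamp and Pcsk1n were lower by 2.07, 1.91, 1.5 and 1.39 on the log2 scale, but in Angpt2-Adm cells they were between 1.63 and 12.5 CPM. Wfdc17 and Tnf, genes of activated microglia, stood at -2.51 and -1.73, and Tnf turned to 0.55 when separate UMIs chose and measured the cells. Mgp, an inhibitor of Bmp signals and of calcification that is high in arteries, had 50.4, 17.0 and 67.8 CPM in Angpt2-Adm cells, against 168, 74.4 and 149 CPM in remaining cells (log2 change -1.49 ± 0.27 SE, edgeR adjusted p = 0.00149); against remaining cells with the same vessel limits its change was -1.04 and missed the threshold. Marcksl1 and the interferon-induced gene Ifi27l2a, at -1.38, were also among the 12. Without replicate 1, the changes of Rtn1, Gria2, Tnf, Lsamp, Mgp, Marcksl1 and Ifi27l2a missed the threshold, without replicate 2 those of Tnf and Marcksl1, and without replicate 3, or with the same vessel limits, that of Ifi27l2a.

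Of the 10 microglia markers, 0 were higher and 1 was lower after adjustment, while 9 were lower at an unadjusted p under 0.05, and the median log2 change was -0.68. The gene that passed was P2ry12, at 14.2, 45.3 and 16.3 CPM in Angpt2-Adm cells, against 14.3, 262 and 29.6 CPM in remaining cells; the change of P2ry12 was -0.32 without replicate 2 and -1.39 without replicate 3, where it missed the threshold, and 0.63 when separate UMIs chose and measured the cells. Oligodendrocyte lineage markers summed to 0.00563% ± 0.00108 of UMIs in Angpt2-Adm cells and 0.0203% ± 0.0104 in remaining cells (SD, n = 3 each), with 2 of 3 tested genes lower. Pericyte markers summed to 0.00676% ± 0.00418 of UMIs in Angpt2-Adm cells and 0.0282% ± 0.0317 in remaining cells. Astrocyte markers, 10 tested, had 1 gene higher and 1 lower, against 5.67% and 1.57% of all genes. The higher one was Gja1, connexin 43, which endothelium also makes, at 115, 49.9 and 81.7 CPM in Angpt2-Adm cells, against 70.4, 34.1 and 34.4 CPM in remaining cells (log2 change 0.96 ± 0.14 SE, edgeR adjusted p = 2.96e-04). With cells that held at least 3 microglia markers left out of every group, 74 of the 94 changes called among named genes of all comparisons kept their calls and 0 changed sign; Lyz2, Hey1, Ccnd1, Col4a1, Tm4sf1, Gpr37l1 and Olig1 lost theirs. The rest did not pass the filter on low counts, among them Ccl2, Wfdc17, Gria2, Tnf, Lsamp, Marcksl1, Hk2 and P2ry12 against remaining cells.

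Promoter sequences of the chosen and of the highest genes are shown because several hold the same motif. In RefSeq windows on GRCm38.p6, the 250 bases before the start site were searched on both strands for TGANTCA (the site of AP-1, the Fos and Jun dimer), TGACGTCA (Creb and Atf factors), ACGTG (hypoxia-inducible factor), TGACNNNGC (Nrf2) and TGGGAA (Rbpj of the Notch pathway). TGANTCA and TGACGTCA cannot match from the same start, while TGACNNNGC can share letters with TGANTCA; a gene with several start sites was counted if any window held the motif. Of the 6 rule genes, 4 had a window and 1 held TGANTCA, Plaur. Of the 12 highest genes, 8 had a window and 3 held it, Osgin1, Emp1 and Hilpda; of all 27025 genes with a window, 7.82% held it. Epha2 held TGACGTCA, as did 1.77% of all genes. Stretches on the strand of the gene are given 5′ to 3′, motif in capitals.
Plaur (chr7:24462389-24462445, plus strand): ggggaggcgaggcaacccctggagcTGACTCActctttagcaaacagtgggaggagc
Osgin1 (chr8:119437025-119437081, plus strand): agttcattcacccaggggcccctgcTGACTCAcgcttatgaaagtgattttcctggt
Emp1 (chr6:135362761-135362817, plus strand): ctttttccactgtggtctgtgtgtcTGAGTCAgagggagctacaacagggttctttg
Hilpda (chr6:29272473-29272529, plus strand): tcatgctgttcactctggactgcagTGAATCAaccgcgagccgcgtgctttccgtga
Epha2 (chr4:141301163-141301220, plus strand): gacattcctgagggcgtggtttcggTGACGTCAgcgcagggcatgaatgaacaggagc
The Osgin1 stretch belongs to a RefSeq start site that lies inside the GENCODE gene, chr8:119434124-119446256. The Emp1 stretch likewise lies inside its GENCODE gene, chr6:135362545-135383173. The TGANTCA match of Hilpda lies inside its GENCODE gene, chr6:29272488-29275446, and another RefSeq window of Hilpda did not hold it. A match is a string of letters and not a measured binding site. ACGTG was found in 1 of the 8 genes with a window, Hilpda (18.5% of all genes). TGACNNNGC was found in 1, Emp1 (11.5%), and TGGGAA in 3, Cdc42ep3, Ifrd1 and Hilpda (24.1%). In Hilpda, ACGTG lay in the window that held TGANTCA, and TGGGAA in the other. In the windows of the rule genes, TGACNNNGC and TGGGAA were each found in 1, that of Adm.

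The gene lists that follow were chosen with earlier results of these data known. Their counts are read beside the shares over all genes outside the rule, 5.67% higher and 1.57% lower. The calls compare Angpt2-Adm with remaining cells only. In summed share of UMIs, arterial-marker cells averaged above Angpt2-Adm cells for the Notch, hypoxia, proteolysis and actin lists, among others. They averaged below them for others, such as the Nrf2, endoplasmic reticulum stress and translation lists. Among ligands and receptors of the Vegf and angiopoietin pathway, 12 genes were tested, with 1 higher and 1 lower (median log2 change 0.11). Flt1, the Vegf receptor that is a gene of the gate, was not tested, and the receptors named next did not pass. Kdr, the main Vegf receptor, had 521, 376 and 475 CPM in Angpt2-Adm cells, against 529, 299 and 445 CPM in remaining cells (log2 change 0.20 ± 0.10 SE, edgeR adjusted p = 0.277). Tek, the receptor of Angpt2, had 165, 205 and 216 CPM in Angpt2-Adm cells, against 203, 175 and 245 CPM in remaining cells (log2 change -0.05 ± 0.11 SE, edgeR adjusted p = 0.856), and Tie1, its partner, was at -0.09 ± 0.11. Nrp1, the Vegf co-receptor, and Flt4, the receptor of Vegfc, were at 0.25 ± 0.11 and 0.31 ± 0.15, with edgeR adjusted p of 0.206 and 0.243. Angptl4, a secreted inhibitor of lipoprotein lipase, was higher, at 61.6, 65.7 and 24.5 CPM in Angpt2-Adm cells, against 30.6, 11.4 and 20.2 CPM in remaining cells (log2 change 1.16 ± 0.23 SE, edgeR adjusted p = 0.00314). Of the receptors of adrenomedullin, Ramp2 was lower, at 803, 602 and 1002 CPM in Angpt2-Adm cells, against 1277, 886 and 1324 CPM in remaining cells (log2 change -0.46 ± 0.10 SE, edgeR adjusted p = 0.00766), while Calcrl was at 0.06 ± 0.16 and Ramp3 at -0.12 ± 0.19. Angpt1, Vegfa and Aplnr did not pass the filter on low counts. Angptl4 and Ramp2 missed the threshold without replicate 1, at 1.26 and -0.41, and Ramp2 also against remaining cells held to the same vessel limits, at -0.33.

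In the Notch pathway, where Dll4 on a cell activates Notch1 on its neighbour, 3 of 15 tested genes were higher and 0 lower (median 0.22). Over all genes the shares were 5.67% and 1.57%. The whole list summed to 0.179% ± 0.0427 of UMIs in Angpt2-Adm, 0.188% ± 0.0131 in arterial-marker and 0.153% ± 0.0214 in remaining cells (SD). The receptor Notch1 had 254, 261 and 191 CPM in Angpt2-Adm cells, against 158, 160.2 and 162 CPM in remaining cells (log2 change 0.62 ± 0.13 SE, edgeR adjusted p = 0.00527), without overlap of the groups. Nrarp, a Notch target that damps the signal, had 56.6, 62.3 and 53.1 CPM in Angpt2-Adm cells, against 32.3, 50.5 and 27.5 CPM in remaining cells (log2 change 0.82 ± 0.24 SE, edgeR adjusted p = 0.0398), and the target Hey1 had 65.4, 66.9 and 89.9 CPM in Angpt2-Adm cells, against 53.1, 64.3 and 50.4 CPM in remaining cells (log2 change 0.51 ± 0.15 SE, edgeR adjusted p = 0.0457). Hes1, another target, was at 0.24 ± 0.21, the ligand Jag1 at 0.20 ± 0.16 and Notch4 at 0.22 ± 0.19, and these 3 did not pass. Without replicate 1, Notch1, Nrarp and Hey1 missed the threshold at 0.53, 0.76 and 0.57. Both Nrarp and Hey1 missed it against remaining cells held to the same vessel limits, and Hey1 with microglia-marker cells left out. Without replicate 3, Nrarp and Hey1 missed it at 0.70 and 0.28.

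Beside Plaur, the plasminogen and pericellular proteolysis list had 3 of 15 tested genes higher and 1 lower (median 0.11). The shares over all genes were 5.67% and 1.57%. Summed over the list, RNA made up 0.447% ± 0.0941 of UMIs in Angpt2-Adm, 0.523% ± 0.0724 in arterial-marker and 0.338% ± 0.0542 in remaining cells (SD). Plat, the tissue plasminogen activator, had 1617, 1709 and 744 CPM in Angpt2-Adm cells, against 708, 850.3 and 518 CPM in remaining cells (log2 change 1.01 ± 0.14 SE, edgeR adjusted p = 1.66e-04). It was higher in every library, though Angpt2-Adm cells of replicate 3 lay under remaining cells of replicate 2. Adamts9 was among the 12 highest genes, and Timp2, an inhibitor of metalloproteases, was lower, at 22.7, 23.8 and 33.5 CPM in Angpt2-Adm cells, against 55.3, 99.7 and 55.0 CPM in remaining cells (log2 change -1.21 ± 0.25 SE, edgeR adjusted p = 0.00423); without replicate 1 its change, -1.23, missed the threshold. Plau, the urokinase that binds Plaur, did not pass the filter on low counts.

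**Figure D4:**
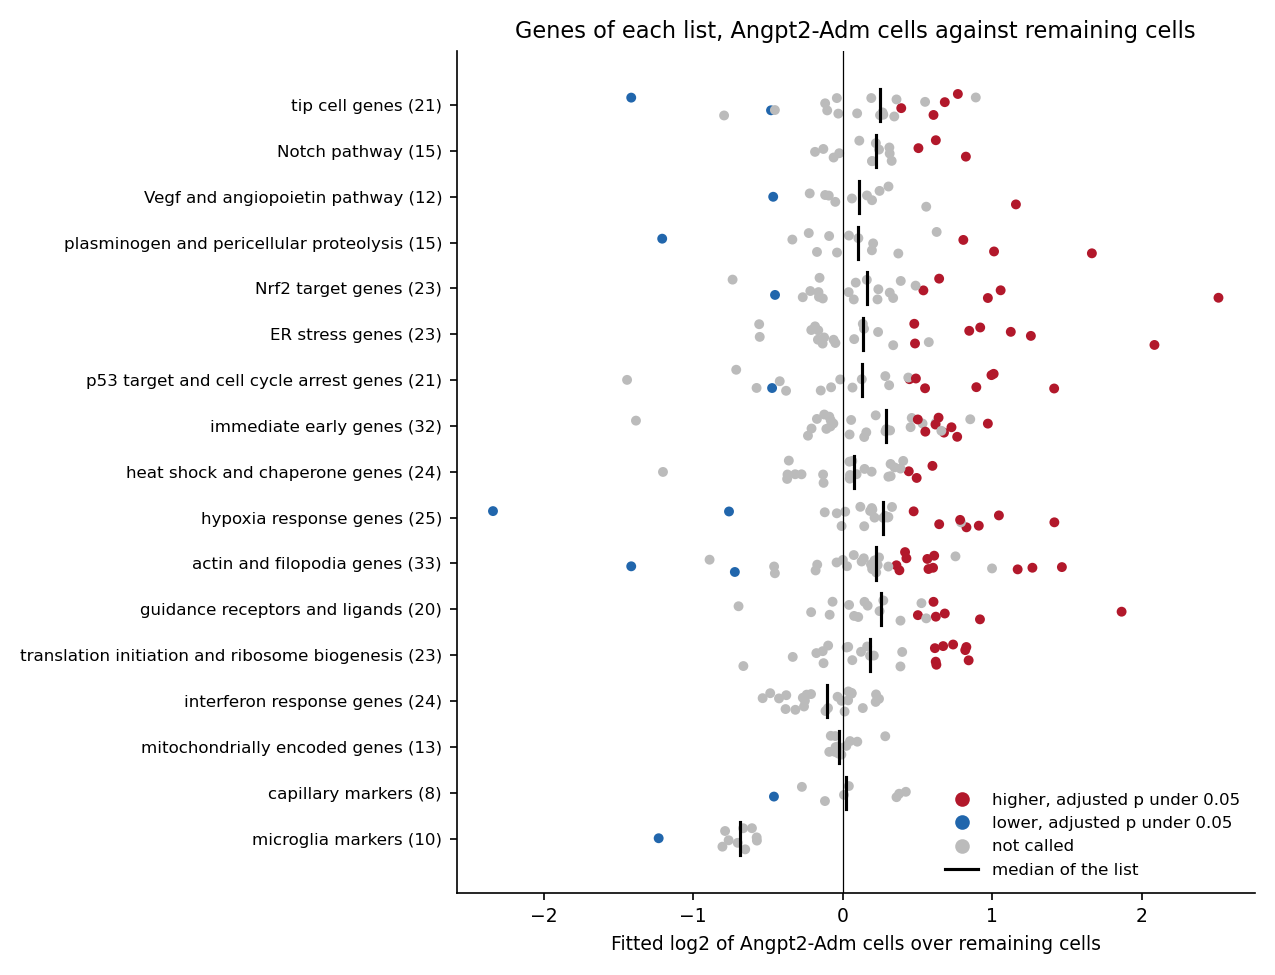
Fitted log2 change of Angpt2-Adm over remaining cells for the tested genes of 17 lists (number in brackets), 1 point per gene, red where called higher, blue where called lower, grey where not called, with a bar at the median. Higher calls are spread over most lists. Interferon response genes, mitochondrially encoded genes, capillary markers and microglia markers have none.

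Higher calls outnumbered lower ones over all genes (5.67% against 1.57%), and the stress lists are read against that. Of 23 tested Nrf2 target genes, 5 were higher and 1 lower (median 0.16). Sqstm1, the autophagy receptor p62, had 742, 788 and 403 CPM in Angpt2-Adm cells, against 355, 368 and 236 CPM in remaining cells (log2 change 1.06 ± 0.15 SE, edgeR adjusted p = 1.96e-04), and Maff, a small Maf partner of Nrf2, had 267, 281 and 159 CPM in Angpt2-Adm cells, against 132, 185 and 80.3 CPM in remaining cells (log2 change 0.97 ± 0.12 SE, edgeR adjusted p = 6.27e-05). Hmox1, a prominent Nrf2 target, was at 0.07 ± 0.19 and was not called. Among endoplasmic reticulum stress genes, 7 of 23 were higher and 0 lower (median 0.13). Ddit3, the transcription factor Chop, had 155, 170.0 and 145 CPM in Angpt2-Adm cells, against 85.2, 64.3 and 70.6 CPM in remaining cells (log2 change 1.13 ± 0.16 SE, edgeR adjusted p = 1.96e-04), and the groups did not overlap. Atf4, its activator, had 589, 507 and 501 CPM in Angpt2-Adm cells, against 309, 325 and 305 CPM in remaining cells (log2 change 0.85 ± 0.14 SE, edgeR adjusted p = 6.93e-04), and Dnajb9, a chaperone of the same compartment, was higher by 0.92 ± 0.16. Without replicate 1, the change of Atf4 was 0.74 and missed the threshold.

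Of 21 tested p53 target and cell cycle arrest genes, 7 were higher and 1 lower (median 0.13), against 5.67% and 1.57% of all genes. Cdkn1a, the inhibitor p21 of cyclin-dependent kinases, had 1197, 1289.9 and 832 CPM in Angpt2-Adm cells, against 709, 499.6 and 481 CPM in remaining cells (log2 change 1.01 ± 0.17 SE, edgeR adjusted p = 9.28e-04), and the stress kinase Plk3 had 72.2, 137 and 109 CPM in Angpt2-Adm cells, against 46.9, 60.6 and 50.7 CPM in remaining cells (log2 change 1.0 ± 0.15 SE, edgeR adjusted p = 2.96e-04). Pcna, the DNA polymerase clamp, was also higher, by 0.91 ± 0.13, and Ccnd1, cyclin D1, by 0.54 ± 0.15, the 2 higher calls among 10 tested cell cycle genes. Both lost their calls without replicate 1, at 0.87 and 0.68, and Ccnd1 also without replicate 3, at 0.30, with the same vessel limits and with microglia-marker cells left out.

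Immediate early genes, which rise within minutes of stimulation and during tissue dissociation, had 8 of 32 tested members higher and 0 lower (median 0.29). All genes outside the rule had shares of 5.67% and 1.57%. Fosb had 1322, 2344 and 1901 CPM in Angpt2-Adm cells, against 819, 1613 and 1156 CPM in remaining cells (log2 change 0.73 ± 0.13 SE, edgeR adjusted p = 0.0015) and Nr4a2 had 333, 277 and 232 CPM in Angpt2-Adm cells, against 169, 247 and 137 CPM in remaining cells (log2 change 0.77 ± 0.15 SE, edgeR adjusted p = 0.00234). Fos, the member most used as a sign of stimulation, was at 3495, 5216 and 3417 CPM in Angpt2-Adm cells, against 4068, 6653 and 3216 CPM in remaining cells (log2 change -0.08 ± 0.15 SE, edgeR adjusted p = 0.811), and Atf3 was at -0.06 ± 0.14. Fosb and Nr4a2 missed the threshold without replicate 1, at 0.69 and 0.54, and Nr4a2 without replicate 3, at 0.69. Heat shock and chaperone genes had 3 of 24 higher and 0 lower after adjustment, 7 higher and 6 lower at an unadjusted p under 0.05 (median 0.08), and summed to 3.08% ± 0.593 of UMIs in Angpt2-Adm cells and 3.61% ± 1.08 in remaining cells (SD, n = 3 each). The 3 were higher, Hspa4 by 0.60, Hspa8 by 0.50 and Dnaja1 by 0.44, all 3 lost without replicate 1 and the last 2 also without replicate 3. Hspa1b, the inducible Hsp70, was at 5879.8, 5776 and 4707 CPM in Angpt2-Adm cells, against 9549, 6758 and 5619.6 CPM in remaining cells (log2 change -0.32 ± 0.12 SE, edgeR adjusted p = 0.11); without replicate 2 its change was -0.39 and passed the threshold.

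Of 25 tested hypoxia response genes, 7 were higher and 2 lower (median 0.27), against 5.67% and 1.57% of all genes. The whole list summed to 0.792% ± 0.0710 of UMIs in Angpt2-Adm, 0.800% ± 0.0778 in arterial-marker and 0.679% ± 0.0196 in remaining cells (SD). Beside Hilpda, Pdk1, the kinase that turns off pyruvate dehydrogenase, had 15.6, 44.2 and 35.1 CPM in Angpt2-Adm cells, against 12.1, 16.4 and 14.4 CPM in remaining cells (log2 change 1.05 ± 0.23 SE, edgeR adjusted p = 0.00795). Hk2, hexokinase 2, was lower by 2.34 on the log2 scale, a value set by remaining cells of replicate 2 (2.95, 14.7 and 6.54 CPM in Angpt2-Adm cells, against 2.72, 236 and 10.5 CPM in remaining cells), and by 0.22 without that library, where it missed the threshold. Hif1a, the oxygen-regulated transcription factor, was at 0.20 ± 0.12. Glycolysis genes had 2 of 18 higher and 1 lower (median 0.20). Ldha, lactate dehydrogenase A, had 635, 829.7 and 675 CPM in Angpt2-Adm cells, against 551, 517 and 538 CPM in remaining cells (log2 change 0.48 ± 0.11 SE, edgeR adjusted p = 0.00875), and the lactate exporter Slc16a3 was higher by 1.16 ± 0.24. Without replicate 1, Ldha and Slc16a3 missed the threshold at 0.56 and 0.93; without replicate 3, Ldha and Pdk1 missed it at 0.50 and 0.85.

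Actin and filopodia genes had 11 of 33 tested higher and 2 lower (median 0.22), against 5.67% and 1.57% of all genes. The whole list summed to 3.03% ± 0.400 of UMIs in Angpt2-Adm, 3.04% ± 0.450 in arterial-marker and 2.96% ± 0.482 in remaining cells (SD). Beside Cdc42ep3, the tubulin Tubb2a was higher, at 276, 264 and 163 CPM in Angpt2-Adm cells, against 138, 59.3 and 93.3 CPM in remaining cells (log2 change 1.27 ± 0.17 SE, edgeR adjusted p = 7.95e-05), without overlap of the groups. Guidance receptors and ligands had 6 of 20 higher and 0 lower (median 0.26). Beside Epha2, Unc5b and Efnb2, the semaphorin Sema4c had 76.9, 90.7 and 76.8 CPM in Angpt2-Adm cells, against 38.0, 49.2 and 51.8 CPM in remaining cells (log2 change 0.92 ± 0.15 SE, edgeR adjusted p = 6.93e-04), at 0.77 and under the threshold without replicate 1. Translation initiation and ribosome biogenesis had 8 of 23 higher and 0 lower (median 0.18), among them the helicase Eif4a1, with 493, 526 and 424 CPM in Angpt2-Adm cells, against 263, 315 and 276 CPM in remaining cells (log2 change 0.84 ± 0.11 SE, edgeR adjusted p = 7.38e-05). Basement membrane and integrin genes had 3 of 24 higher and 1 lower (median 0.22), with the integrin Itga6 at 0.50 ± 0.12, lost without replicate 1 at 0.45.

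Of 26 transporters of the blood-brain barrier, 2 were higher and 1 lower (median 0.11), against 5.67% higher and 1.57% lower over all genes. Slc30a1, a zinc exporter, had 460.2, 396 and 268 CPM in Angpt2-Adm cells, against 237, 209 and 197 CPM in remaining cells (log2 change 0.87 ± 0.12 SE, edgeR adjusted p = 1.09e-04). Car4, a carbonic anhydrase of capillaries, was lower, at 589, 384 and 445 CPM in Angpt2-Adm cells, against 791, 539 and 721 CPM in remaining cells (log2 change -0.46 ± 0.12 SE, edgeR adjusted p = 0.0203). Slc1a1, a glutamate transporter, was higher by 0.45. Slc2a1, the glucose transporter, was at 0.28 ± 0.11 and Mfsd2a, the lipid transporter of capillaries, at -0.27 ± 0.13, neither past the threshold. Car4 and Slc1a1 missed it against remaining cells held to the same vessel limits, at -0.34 and 0.36, and both missed it without replicate 1. Slc1a1 also missed it without replicate 2 and Car4 without replicate 3. Endothelial junction genes had 1 of 20 higher, Gja1, and 0 lower, and Wnt and barrier genes 1 of 23 higher, Sox7, and 0 lower. Sox7, a transcription factor of endothelium, had 259, 300.4 and 146 CPM in Angpt2-Adm cells, against 130.4, 129.9 and 77.7 CPM in remaining cells (log2 change 1.11 ± 0.15 SE, edgeR adjusted p = 7.79e-05). Capillary markers had 0 of 8 higher and 1 lower, with 3 higher and 2 lower at an unadjusted p under 0.05 (1 higher and 1 lower by DESeq2).

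Among Tgf-beta and Bmp genes, 3 of 21 were higher and 2 lower (median 0.09), against 5.67% and 1.57% of all genes. Id1, a direct target of Bmp signals, was lower, at 669, 428 and 656 CPM in Angpt2-Adm cells, against 1309.9, 860.4 and 855 CPM in remaining cells (log2 change -0.69 ± 0.14 SE, edgeR adjusted p = 0.00527), while Smad6, an inhibitor of the same signals, was higher by 0.63 ± 0.16 and Tgfb1 by 0.52 ± 0.13. All 3 calls were lost without replicate 1, and those of Smad6 and Tgfb1 without replicate 3 and with the same vessel limits. Leukocyte adhesion and cytokine genes had 3 of 23 higher and 1 lower (median 0.01). Icam1, the adhesion molecule that slows leukocytes, had 138, 253 and 237 CPM in Angpt2-Adm cells, against 115, 156 and 121 CPM in remaining cells (log2 change 0.71 ± 0.19 SE, edgeR adjusted p = 0.0302), and 0.52 without replicate 3, under the threshold. Cx3cl1, the fractalkine ligand of microglia, was higher by 0.66 ± 0.14, lost without replicate 1 at 0.53. Interferon response genes had 0 of 24 called by edgeR (0 by DESeq2), with 3 lower and 0 higher at an unadjusted p under 0.05 and a median of -0.11. Mitochondrially encoded genes had 0 of 13 called, 0 at an unadjusted p under 0.05 and 0 by DESeq2 (median -0.03). Of arterial markers outside the rule, 3 of 9 were higher and 1 lower, and of venous ones 2 of 8 were higher and 0 lower. Tmem252 was the higher venous marker beside Icam1, at 564, 458 and 262 CPM in Angpt2-Adm cells, against 237, 129 and 174 CPM in remaining cells (log2 change 1.29 ± 0.19 SE, edgeR adjusted p = 3.00e-04), and Tm4sf1, a tetraspanin-like surface protein, was the higher arterial marker beside Efnb2 and Hey1, at 0.62 ± 0.19, lost without replicate 1 or 2.

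Levels of several genes outside the rule followed the number of the 6 RNAs that a cell held, among cells within the limits on arterial and venous genes. Mean CPM over libraries of Osgin1 was 19.6, 17.8, 25.6, 60.1, 87.2, 176 and 339.8 in cells with 0 to 6 of them. Cdkn1a ran through 420.3, 450.4, 708, 858, 1095, 1343 and 1497 CPM. Plat stood at 533 ± 59.3 CPM with 1 and 1345 ± 493 CPM with 4 (SD, n = 3), and Notch1 at 157 ± 24.9 and 235 ± 6.56 CPM. Ramp2 went the other way.

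Ramp2 averaged 1097 ± 333 CPM with 1, 826 ± 138 with 4 and 533 ± 105 with 5 of the 6 RNAs. Hspa1b averaged 6792 ± 3659 CPM with 1, 7614 ± 2008 with 3, 5841 ± 1867 with 4 and 3065 ± 549.6 with 5, so its mean was higher with 3 than with 1 and lower with 5. Kdr averaged 379.5 ± 197 CPM with 1, 469 ± 35.7 with 4 and 509.6 ± 168 with 5, a climb of its means within the spread of the libraries, and 359 CPM with 6. Cells with more of the 6 RNAs also had more UMIs: the median was 4667, 3814 and 3947 with 1, and 7238, 6073 and 7120 with 4. Groups with 5 genes held 102, 25 and 11 cells and those with 6 held 26, 8 and 4, and the 4 cells of replicate 3 were left out of the means with 6. Over groups with at least 20 cells in each library (1 to 4 genes), the orders of the means of Osgin1, Cdc42ep3, Cdkn1a, Plat, Notch1 and Ramp2 were the same. In replicate 2 alone, Ramp2 did not descend from 1 to 3 genes (715, 725 and 735 CPM). Notch1 did not climb at every step in replicate 2 (185, 168 and 195 CPM with 1 to 3 genes). In replicate 3 it had 171 CPM with 2 and 169 CPM with 3. The 11 cells of replicate 3 with 5 genes had less Notch1 (188 CPM) and Cdkn1a (893 CPM) than those with 4 (236 and 966 CPM). These values come from the cells that the rule ranked, so they are descriptions.

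**Figure D5:**
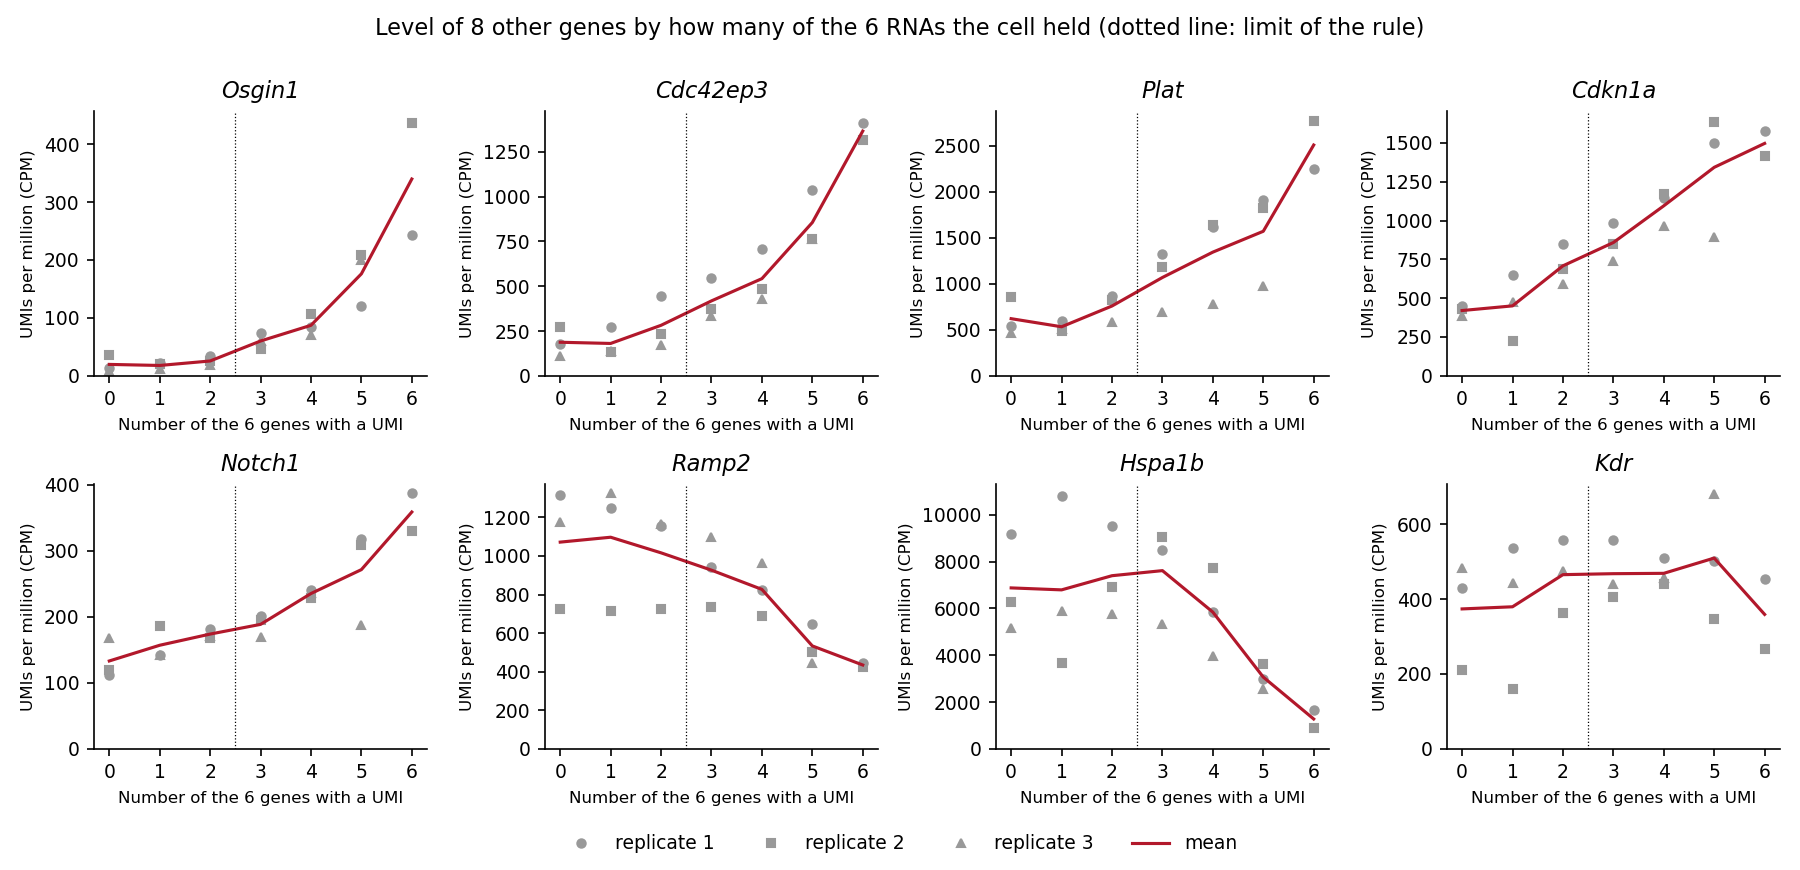
Level (CPM, linear axes from 0) of 8 genes outside the rule in cells with 0 to 6 of the 6 RNAs, grey symbols for libraries and a red line for their mean; the dotted line marks the limit of the rule. From 1 gene on, the means of Osgin1, Cdc42ep3, Plat, Cdkn1a and Notch1 climb and that of Ramp2 descends. The mean of Hspa1b lies lower from 4 genes on, and the means of Kdr climb to 5 genes and lie lower at 6.

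Against arterial-marker cells, 953 genes were higher in Angpt2-Adm cells (10.6% of 8979) and 696 lower (7.75%), outside the rule. For 9.67% of the genes every library of Angpt2-Adm cells was above every library of arterial-marker cells, and for 15.3% below. Car4 had 589, 384 and 445 CPM in Angpt2-Adm cells, against 36.1, 43.4 and 35.8 CPM in arterial-marker cells (log2 change 3.82 ± 0.16 SE, edgeR adjusted p = 2.85e-12). Car14, another carbonic anhydrase, had 23.6, 15.9 and 22.1 CPM in Angpt2-Adm cells, against 1.81, 3.34 and 1.79 CPM in arterial-marker cells (log2 change 3.48 ± 0.38 SE, edgeR adjusted p = 1.74e-06). Meox1, a homeobox factor, and the adhesion receptor Adgrl3 were higher by 3.44 ± 0.45 and 3.71 ± 0.44, and the secretoglobin Scgb3a1 by 3.21 ± 0.40. The lowest genes were low or at 0 in Angpt2-Adm cells. Fbln5, an elastic fibre protein, had 0, 0 and 0.817 CPM in Angpt2-Adm cells, against 63.2, 63.5 and 37.5 CPM in arterial-marker cells. Igfbp4, which binds insulin-like growth factors, had 0.295, 0 and 0 CPM in Angpt2-Adm cells, against 110.2, 10.0 and 32.2 CPM in arterial-marker cells. Nov, a matrix signalling protein, had 0.295, 0 and 0 CPM in Angpt2-Adm cells, against 74.7, 53.5 and 26.8 CPM in arterial-marker cells. Pi16, a secreted peptidase inhibitor, and Fabp4, a fatty acid binding protein, were at 0 in all Angpt2-Adm cells, against 56.0, 214 and 70.9 CPM (Pi16) and 34.9, 26.7 and 17.9 CPM (Fabp4) in arterial-marker cells. Leaving out replicate 1 gave 331 higher and 253 lower genes, and leaving out replicate 3 gave 509 higher and 374 lower.

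Against venous-marker cells, 807 genes were higher (8.99%) and 463 lower (5.16%). For 8.81% of the genes every library of Angpt2-Adm cells was above every library of venous-marker cells, and for 14.2% below. Hey1 had 65.4, 66.9 and 89.9 CPM in Angpt2-Adm cells, against 3.39, 6.14 and 3.31 CPM in venous-marker cells (log2 change 4.41 ± 0.35 SE, edgeR adjusted p = 5.12e-08). Unc5b had 45.1, 70.3 and 46.6 CPM in Angpt2-Adm cells, against 3.39, 0 and 4.41 CPM in venous-marker cells (log2 change 3.89 ± 0.36 SE, edgeR adjusted p = 3.48e-07), and Efnb2 had 76.6, 35.1 and 38.4 CPM in Angpt2-Adm cells, against 4.51, 0 and 4.41 CPM in venous-marker cells (log2 change 3.82 ± 0.38 SE, edgeR adjusted p = 8.51e-07). Lypd1, a membrane-anchored protein, and the galectin Lgals3 were higher by 4.58 ± 0.52 and 4.49 ± 0.87. Among the lower genes, Vcam1, the leukocyte adhesion molecule of veins, had 26.2, 10.2 and 100.5 CPM in Angpt2-Adm cells, against 590.2, 872 and 1127 CPM in venous-marker cells (log2 change -4.27 ± 0.45 SE, edgeR adjusted p = 1.79e-06). Wnt5a, a Wnt ligand, had 7.66, 6.80 and 12.3 CPM in Angpt2-Adm cells, against 118, 172 and 120.3 CPM in venous-marker cells (log2 change -3.74 ± 0.27 SE, edgeR adjusted p = 1.32e-08), and lipocalin 2, Lcn2, was lower by 3.95, prostacyclin synthase, Ptgis, by 4.77 and Nkd2, an inhibitor of Wnt signals, by 4.08 on the log2 scale. Venous-marker cells of replicate 2 numbered 12. Leaving out replicate 1 gave 217 higher and 98 lower genes, and leaving out replicate 3 gave 452 higher and 192 lower. Both comparisons use the same Angpt2-Adm profiles as the comparison with remaining cells.

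Within the 718 cells, the 179 with an Angpt2 UMI (122, 19 and 38 in replicates 1, 2 and 3) were set against the 539 without, a comparison added after the data were seen. Angpt2 is itself a gene of the rule. Cells without it had to hold at least 3 of the other 5 genes, and cells with it fewer. The 2 sides therefore differed in how they were chosen, and the p-values do not separate that from Angpt2. Outside the rule, 34 genes were higher (0.459% of 7409) and 34 lower (0.459%). Osgin1 was higher, with 155, 368 and 169 CPM in Angpt2-detected cells, against 79.5, 121 and 58.2 CPM in Angpt2-undetected cells (log2 change 1.29 ± 0.16 SE, edgeR adjusted p = 2.49e-06). Crim1, a membrane protein that binds Bmp and Vegf ligands, had 211, 181 and 186 CPM in Angpt2-detected cells, against 109, 99.0 and 79.7 CPM in Angpt2-undetected cells (log2 change 1.01 ± 0.16 SE, edgeR adjusted p = 1.31e-04). Sox4, a transcription factor of immature and migrating cells, had 48.8, 103 and 98 CPM in Angpt2-detected cells, against 29.7, 35.7 and 25.9 CPM in Angpt2-undetected cells (log2 change 1.24 ± 0.25 SE, edgeR adjusted p = 0.00335). Cdc42ep3 was at 0.68, Smad7, an inhibitor of Tgf-beta signals, at 0.55, Ism1, a secreted angiogenesis inhibitor, at 1.12, and Myo10, the motor of filopodia, at 0.60. Of the other 5 genes of the rule, given without a test, Adm differed most, with 324, 1556 and 673 CPM in Angpt2-detected cells, against 281, 796 and 417 CPM in Angpt2-undetected cells, and Trim16 least, with 183, 187 and 84.5 CPM in Angpt2-detected cells, against 185, 131 and 101 CPM in Angpt2-undetected cells.

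Lower in Angpt2-detected cells were Icam1, with 99.8, 96.8 and 64.2 CPM in Angpt2-detected cells, against 152, 286 and 292 CPM in Angpt2-undetected cells (log2 change -1.21 ± 0.19 SE, edgeR adjusted p = 1.31e-04), and the immediate early genes Fos, with 3144, 2621 and 2731 CPM in Angpt2-detected cells, against 3622, 5769 and 3636 CPM in Angpt2-undetected cells (log2 change -0.57 ± 0.10 SE, edgeR adjusted p = 7.48e-04), and Jun, at -0.42. Microglial RNAs such as C1qa, at -1.24, and Csf1r, at -1.59, were lower as well. The 10 microglia markers summed to 0.0542%, 0.0174% and 0.0700% of UMIs in Angpt2-detected cells, against 0.0844%, 0.179% and 0.161% in Angpt2-undetected cells. With cells that held at least 3 microglia markers left out, C1qa was at 0.03, 15 genes were higher and 6 lower, and the changes of Osgin1, Crim1, Sox4, Cdc42ep3, Smad7, Ism1, Myo10, Icam1, Fos and Jun still passed. Ism1 and Myo10 missed the threshold without replicate 1. The counts were 18 higher and 26 lower without replicate 1, 14 higher and 5 lower without replicate 2, and 20 higher and 27 lower without replicate 3. The fit had 6 profiles with 2 residual degrees of freedom, and without the library block no gene passed (77 higher and 114 lower at an unadjusted p under 0.05).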

How the data were processed

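RNA of hippocampal cells was measured in 3 droplet libraries of 1 group. The authors deposited 1 table of raw UMI counts per library, genes by cell barcodes, and the submitters' processing notes name Cell Ranger and the mouse genome mm10; the version and the counting of intronic or antisense reads are not given in the sources used here. Symbols were matched to GENCODE vM21 (30531 of 31053). Scrublet called doublets, which were kept and left out as an alternative.

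Cells were gated by detected marker genes and UMIs were summed per library and group. edgeR 4.0.16 (quasi-likelihood test, TMM scaling, filterByExpr, library as a block, Benjamini-Hochberg adjusted p under 0.05) was fitted to 12 profiles of 4 groups with 6 residual degrees of freedom, after a check on simulated data, with R 4.3.3, limma 3.58.1, DESeq2 1.42.0 and scanpy 1.11.5. Every profile of a library comes from the same cell suspension, which is why the library is a block. The members and lists were chosen with earlier results of these data known. Genes were named by rule: against remaining cells, the 12 highest and 12 lowest called changes, if all libraries had the same sign and either group averaged 20 CPM or more, then 3 called genes per list and a set of described genes; 5 each way for the other comparisons. Predicted gene models and haemoglobin genes were left out, and some genes that the rule names are not reported here. Totals of 45716237, 7185668 and 40377042 UMIs set the precision; intervals cover counting error only. Scaling, filter, test, replicates, block, depth, thresholds, doublets and cell limits were varied. A comparison by Angpt2 detection, the removal of cells with microglia markers and tighter vessel limits on remaining cells were chosen after seeing the data.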

Additional observations from a re-analysis of the deposited data

How the results depend on the processing

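Against remaining cells, genes higher numbered 509 and, with every cell thinned to 2000 UMIs, 261; genes lower numbered 141 and were 325 with no low-count filter, 47 with DESeq2, 70 with only the 2 groups in the fit, 84 thinned, 246 with UMIs split for choosing and testing, 326 with 4 or more genes of the rule and 90 with 5000 or more UMIs. Without the replicate block, that is without pairing the profiles of a library, 21 were higher and 1 lower against remaining cells, 330 and 274 against arterial-marker cells, 251 and 127 against venous-marker cells, and 0 and 0 between Angpt2-detected and Angpt2-undetected cells by edgeR (77 higher and 114 lower at an unadjusted p under 0.05). Leaving out 1 library gave 73 to 476 higher and 9 to 105 lower against remaining cells, 331 to 946 and 253 to 735 against arterial-marker cells, 217 to 851 and 98 to 430 against venous-marker cells, and 14 to 20 and 5 to 27 by Angpt2 detection. Thinned cells gave 395 higher and 306 lower against arterial-marker cells and 281 and 126 against venous-marker cells, where DESeq2 gave 290 lower. Without microglia-marker cells the Angpt2 comparison gave 15 and 6. The share of Angpt2-Adm cells, 19.0%, was 10.9% thinned, 11.04% with 4 or more genes and 29.6% with 2 or more. With split UMIs, Tnf reversed to 0.55 and P2ry12 to 0.63; the cause was not tested. Of 94 called changes of named genes, 93 kept their call with RLE scaling, 68 with DESeq2, 49 without replicate 1 and 28 without the block, and 0 reversed there. The smallest profile was that of venous-marker cells of replicate 2, with 12 cells.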
